A study of Mus musculus with 8 samples.

Results

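The 10 regulators of vascular calcification Mgp, Runx2, Alpl, Enpp1, Ibsp, Bmp2, Bmp4, Ank, Sost and Tnfrsf11b, were examined in RNA-seq of the whole mouse aorta. They were taken by gene symbol from 48607 assembled loci, and a symbol with several loci was represented by its largest locus by total count. All 10 genes were present in the table. Each library was poly(A) RNA of a whole aorta from a mouse fed a high-fat, high-cholesterol Western diet, which was given for 12 weeks. All mice lacked ApoE (ApoE-/-), the apolipoprotein that clears remnant lipoproteins, whose loss leads to atherosclerosis on such a diet. The comparison group (NPRC-/-ApoE-/-) also lacked natriuretic peptide receptor C (NPRC, gene Npr3), which clears natriuretic peptides from the circulation. NPRC was removed in every tissue by a CRISPR frameshift in exon 1, in littermates on a C57BL/6 background, so a change in the aorta can also come from outside it. Purchased ApoE-/- males were 8 weeks old, and the age of the sequenced littermates was not stated in the text used here. Titles assign 5 libraries to ApoE-/- (1 to 5) and 3 libraries to NPRC-/-ApoE-/- (1 to 3), whereas the methods name 5 mice for each group.

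The labels disagreed for 4 of the 8 libraries. ApoE-/- 4 and 5 were entered with the genotype Nprc-/-Apoe-/-, and NPRC-/-ApoE-/- 1 and 2 with the genotype Apoe-/-. Groups below are those of the title, and each comparison was repeated with the genotype entry. Npr3 did not tell the labels apart: its level was 0.62 to 1.69 FPKM (a level per length of transcript, relative to the mapped fragments of each library), with a log2 fold change of 0.10 by title (SE 0.28, adjusted p = 0.90, edgeR quasi-likelihood test, Benjamini-Hochberg adjusted), and a frameshift need not remove the RNA. Libraries held 62969165 to 86693276 counts. Summed FPKM of 8 smooth muscle markers was 1317 to 2918 and that of 6 endothelial markers was 79.8 to 92.7. Libraries also differed in the markers of fat (6 brown fat genes, 120.4 to 586.3 FPKM summed) and of skeletal muscle (6 genes, 0.90 to 13.3 FPKM summed).

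Calcification of the arterial wall is the deposition of calcium phosphate in the media or in plaques. Inorganic pyrophosphate blocks crystal growth: Enpp1 makes it outside the cell from ATP, Ank is needed for its export, and Alpl, the tissue-nonspecific alkaline phosphatase, breaks it down. Mgp, matrix Gla protein, is a vitamin K-dependent inhibitor that smooth muscle cells secrete in large amounts. Bmp2 and Bmp4 are bone morphogenetic proteins that can drive an osteogenic program, Runx2 is the transcription factor that commits cells to the osteoblast lineage, and Ibsp (bone sialoprotein) is a matrix protein that nucleates mineral. Sost encodes sclerostin, a secreted WNT antagonist of osteocytes that is also made by vascular smooth muscle. Tnfrsf11b encodes osteoprotegerin, the decoy receptor for RANKL, and mice without it develop arterial calcification.

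The promoter sequences are shown for Sost, the 1 tested regulator that met the criterion for change described below, and for Enpp1 and Alpl, the opposed enzymes of pyrophosphate. Each is the 250 bases upstream of the start in RefSeq (GRCm38.p6), printed 5′ to 3′ on the strand of the gene. Capitals mark a match to TGTGGT, the core bound by RUNX factors, or to CANNTG, the E-box, on either strand. The Sost window is chr11:101967016-101967265 (minus strand), the Enpp1 window is chr10:24712160-24712409 (minus strand) and the Alpl window, of the first of 2 listed starts, is chr4:137796385-137796634 (minus strand).
Sost: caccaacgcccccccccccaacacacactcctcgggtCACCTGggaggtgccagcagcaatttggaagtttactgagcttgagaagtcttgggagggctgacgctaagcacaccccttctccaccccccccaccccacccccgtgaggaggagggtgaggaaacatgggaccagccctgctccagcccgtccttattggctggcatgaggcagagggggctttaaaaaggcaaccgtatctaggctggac
Enpp1: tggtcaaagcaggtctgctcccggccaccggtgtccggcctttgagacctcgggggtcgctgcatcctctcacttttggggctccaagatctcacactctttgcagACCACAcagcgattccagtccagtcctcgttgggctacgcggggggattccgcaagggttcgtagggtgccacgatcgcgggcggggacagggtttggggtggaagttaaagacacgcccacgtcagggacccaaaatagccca
Alpl: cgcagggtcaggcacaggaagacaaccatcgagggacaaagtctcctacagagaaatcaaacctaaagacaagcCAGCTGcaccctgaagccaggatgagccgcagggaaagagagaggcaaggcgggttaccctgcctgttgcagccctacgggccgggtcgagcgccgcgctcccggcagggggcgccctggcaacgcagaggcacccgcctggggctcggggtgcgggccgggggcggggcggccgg
Relative to the start, the TGTGGT match of Enpp1 begins at −144 and is on the opposite strand. The E-box matches of Sost and Alpl begin at −213 and −176. RefSeq entries were matched for 7 of the 10 genes (8 entries). Of the 8 entries, 2 held TGTGGT (Runx2 and Enpp1), against 14% of 32851 promoters of the same length, and CANNTG was found in 66.2% of all promoters. The entries of Ibsp and the second start of Alpl held TATAAA, which 12.4% of all promoters held. None of the 8 entries held a CArG box, the serum response factor motif of smooth muscle genes, which 1.47% of all promoters held. These matches describe letters only.

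Levels of the 10 regulators spanned a wide range. Mgp had the highest mean FPKM over all libraries (484), followed by Sost (50.01), Ank (10.4), Bmp4 (6.78), Enpp1 (6.09), Tnfrsf11b (3.79), Alpl (2.18), Bmp2 (1.71), Runx2 (0.93) and Ibsp (0.73). The lowest Mgp value (378) was above the highest Sost value (117), and the lowest Sost value (16.8) was above the highest Ank value (12.5). From Ank downwards, the ranges of neighbours in this order overlapped. Ank and Bmp4 varied least between libraries (highest over lowest FPKM 1.45 and 1.49), whereas Sost varied 6.94-fold and Ibsp 11.4-fold. Other genes of bone were close to the floor of the data. Bglap2 was listed at 0 in all libraries, Bglap (osteocalcin) and Mepe had 4 counts each in all libraries together, and Sp7 (osterix), the osteoblast factor that acts after Runx2, was at 0.04 to 0.15 FPKM.

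**Figure D1:**
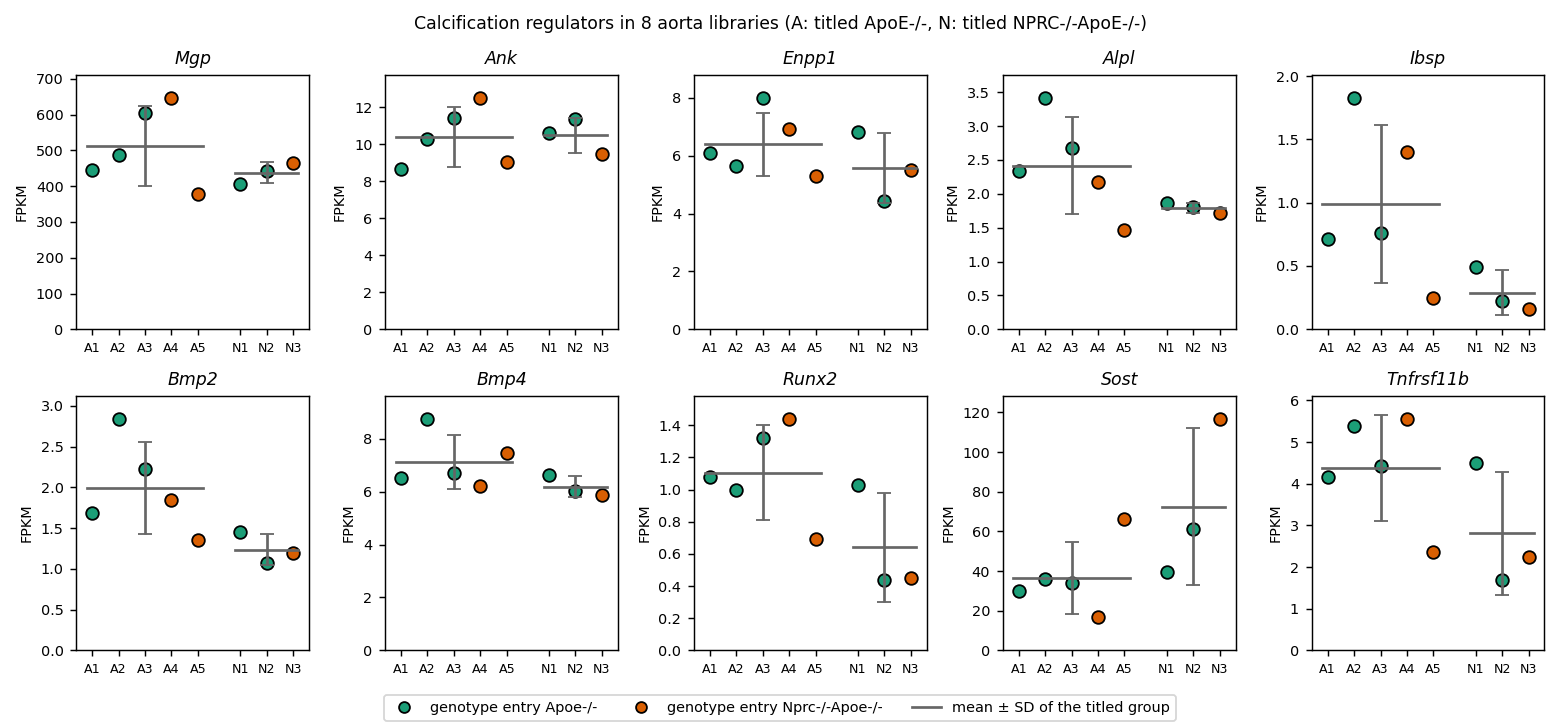
FPKM of each regulator (vertical axes, from 0, a scale for each gene) in the libraries titled ApoE-/- (A1 to A5) and NPRC-/-ApoE-/- (N1 to N3), with the color giving the genotype entry and gray bars the mean ± SD of the titled groups. Every gene has at least 1 library of one group within the range of the other, and for Sost the library N3 (117 FPKM) stands above all others.

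The question was whether deletion of NPRC changed the RNA of these genes. By title, the 9 regulators inside the filter (at least 1 FPKM in at least 3 libraries, 20506 loci) included 7 with a lower and 2 with a higher fitted level in NPRC-/-ApoE-/-, where 50.9% of all loci tested were lower. The median log2 fold change of the 9 genes was −0.22, and that of all loci tested was −0.0062. With the criterion of the study, a difference of more than 2-fold either way at an unadjusted p-value under 0.05, 1 of the 9 (Sost) was called, against 3.47% of all loci. An unadjusted p-value under 0.05 was found for 2 of the 9 (Sost and Bmp2), against 13.6% of all loci. After Benjamini-Hochberg adjustment in edgeR's quasi-likelihood test, 0 of the 9 regulators and 0% of all loci passed 0.05. DESeq2 gave 3 of the 9 an unadjusted p-value under 0.05, against 16.7% of all loci, and 0 an adjusted one, against 3.17% of all loci. By genotype entry, 6 were lower and 3 higher, the median was −0.06, and 0 of the 9 had an unadjusted p-value under 0.05, against 1.31% of all loci. The criterion of the study was then met by 0 of the 9, against 0.463% of all loci. The titled groups did not separate fully on log2 CPM (counts relative to the library total) for any of the 10 genes, while 7.41% of all loci did, nor did the groups by genotype entry, while 1.2% of all loci did.

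**Figure D2:**
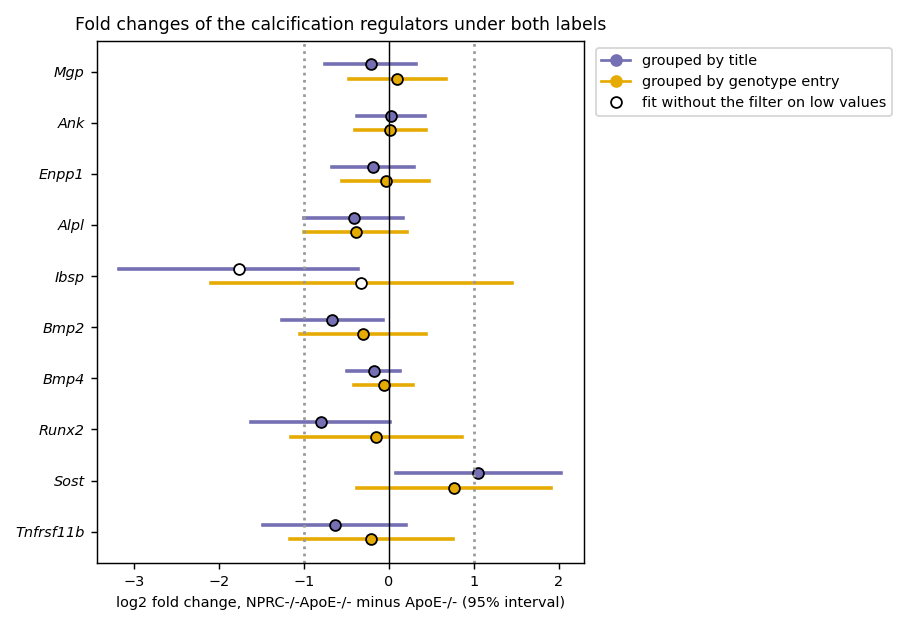
Log2 fold change of each regulator with its 95% interval (horizontal axis, NPRC-/-ApoE-/- minus ApoE-/-), grouped by title (purple) and by genotype entry (yellow), with dotted lines at a 2-fold change and an open point for Ibsp, which was fitted without the filter. By title the intervals of Sost (0.08 to 2.03), Bmp2 (−1.26 to −0.07) and Ibsp (−3.17 to −0.36) lie on 1 side of 0, and by genotype entry all 10 intervals include 0.

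Among the genes that control pyrophosphate, no difference was called. Enpp1 (ENSMUSG00000037370, chr10:24637914-24712159, minus strand) was at 6.10, 5.63, 8.01, 6.94 and 5.29 FPKM in ApoE-/- 1 to 5 and at 6.83, 4.42 and 5.51 FPKM in NPRC-/-ApoE-/- 1 to 3. The lowest value belonged to NPRC-/-ApoE-/- 2 and the highest to ApoE-/- 3, and the groups overlapped. The log2 fold change was −0.19 (SE 0.21, 95% interval −0.67 to 0.30, adjusted p = 0.722, edgeR quasi-likelihood test, Benjamini-Hochberg adjusted). By genotype entry it was −0.04 (95% interval −0.55 to 0.48).

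Alpl (ENSMUSG00000028766, chr4:137741733-137796384, minus strand), which acts against Enpp1, was at 2.34, 3.42, 2.68, 2.18 and 1.47 FPKM in ApoE-/- and at 1.86, 1.80 and 1.72 FPKM in NPRC-/-ApoE-/-. The 3 libraries titled NPRC-/-ApoE-/- lay close together, below 4 of the 5 ApoE-/- libraries and above ApoE-/- 5. The difference on the log2 scale was −0.41 (SE 0.26, 95% interval −0.997 to 0.17, adjusted p = 0.493, edgeR quasi-likelihood test), and with the genotype entry it was nearly as large at −0.39 (95% interval −0.997 to 0.21). The ratio of Alpl to Enpp1 FPKM within a library was 0.385, 0.608, 0.335, 0.315 and 0.279 in ApoE-/- and 0.273, 0.409 and 0.313 in NPRC-/-ApoE-/-. The mean log2 ratio was −1.44 ± 0.43 (SD, n = 5) and −1.61 ± 0.29 (SD, n = 3), which overlapped (two-sided exact permutation test, p = 0.589, the smallest that 5 against 3 allows being 0.0179). ApoE-/- 2 had the highest ratio, and without it the difference of −0.18 became 0.00319.

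Ank (ENSMUSG00000022265, chr15:27466677-27594909, plus strand) had the most even level. It was at 8.65, 10.3, 11.4, 12.5 and 9.02 FPKM in ApoE-/- and at 10.6, 11.4 and 9.46 FPKM in NPRC-/-ApoE-/-, so that the second group lay inside the range of the first. The log2 fold change was 0.02 (SE 0.18, 95% interval −0.38 to 0.42, adjusted p = 0.970, edgeR quasi-likelihood test, Benjamini-Hochberg adjusted), and the interval left room for changes of less than 2-fold. The locus also carries the microRNA gene Mir7117, and 67.8% of the counts under the symbol Ank fell in it. The other counts came from 3 loci on the minus strand inside the introns of Ank (chr15:27470176-27474088, chr15:27484327-27497808 and chr15:27516336-27518762). Their log2 fold changes were 0.17, 0.23 and 0.15, and whether they are RNA of Ank is not known. Ank, Tnfrsf11b and Npr3 lie on the same chromosome, Ank 15.6 Mb and Tnfrsf11b 42.3 Mb from Npr3.

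Of the other genes of pyrophosphate and phosphate handling, 7 of 9 listed were tested, and 2 were lower and 5 higher by title. Nt5e (CD73), which turns AMP into adenosine and phosphate, was at 1.99, 2.25, 2.42, 2.87 and 1.52 FPKM in ApoE-/- and at 1.51, 0.58 and 0.79 FPKM in NPRC-/-ApoE-/-. The levels of ApoE-/- 5 and NPRC-/-ApoE-/- 1 were alike, and the other 2 NPRC-/-ApoE-/- libraries were lower than all others. The log2 fold change was −1.20 (SE 0.34, unadjusted p = 0.00678, adjusted p = 0.267 in edgeR quasi-likelihood test, Benjamini-Hochberg adjusted, 0.0247 in DESeq2), and by genotype entry it was 0.01. Phospho1, a phosphatase that releases phosphate in matrix vesicles, was higher by 0.43 on the log2 scale (SE 0.17, unadjusted p = 0.0276 in the edgeR fit), but shares its locus with Zfp652. By genotype entry the Phospho1 value was 0.0068. Slc29a1, the nucleoside transporter with the highest level in the list, differed by 0.05 (SE 0.15).

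Mgp (ENSMUSG00000030218, chr6:136872435-136875823, minus strand) was abundant in every aorta. Its level was 445, 487, 604, 648 and 378 FPKM in ApoE-/- and 406, 443 and 465 FPKM in NPRC-/-ApoE-/-. The highest values, in ApoE-/- 3 and 4, and the lowest, in ApoE-/- 5, were all in the ApoE-/- group, which enclosed the other. Its log2 fold change was −0.22 (SE 0.24, 95% interval −0.75 to 0.32, adjusted p = 0.703, edgeR quasi-likelihood test, Benjamini-Hochberg adjusted), and it turned to 0.10 by genotype entry (95% interval −0.47 to 0.67).

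Ibsp (ENSMUSG00000029306, chr5:104299171-104311469, plus strand) was the least abundant regulator and the one with the largest fitted difference. It did not pass the filter, so its test is from the fit without a filter. Its counts were 144, 305, 156, 289 and 49 in ApoE-/- and 106, 35 and 35 in NPRC-/-ApoE-/-, or 0.71, 1.83, 0.76, 1.40 and 0.25 FPKM against 0.49, 0.22 and 0.16 FPKM. ApoE-/- 5 was as low as the NPRC-/-ApoE-/- group, and the other 4 ApoE-/- libraries were above it. In that fit the log2 fold change was −1.77 (SE 0.63, 95% interval −3.17 to −0.36), with an unadjusted p-value of 0.0187 and an adjusted p-value of 0.402 in edgeR's quasi-likelihood test. It met the criterion of the study there, where 5.12% of 44689 loci did, and 2 of the 10 regulators were called (Ibsp and Sost). By genotype entry its log2 fold change was −0.33 (95% interval −2.09 to 1.44), and without NPRC-/-ApoE-/- 2 or 3 its p-value was above 0.05 (log2 fold changes −1.58 and −1.48).

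The mineral-binding and Gla proteins had 6 of 10 listed genes tested, of which 5 were lower and 1 higher. Spp1, osteopontin, whose locus is 123 kb from that of Ibsp, ranged from 171 to 1275 FPKM in ApoE-/- and from 105 to 495 FPKM in NPRC-/-ApoE-/-, with a log2 fold change of −1.50 (SE 0.80, unadjusted p = 0.0933 in the edgeR fit). Without NPRC-/-ApoE-/- 1 it was −2.57 (unadjusted p = 0.0186 in the edgeR fit), and without ApoE-/- 4 it was −1.07. Spp1 shares its locus with Gm42793, and by genotype entry the value turned to 0.13. Gas6, a vitamin K-dependent ligand of TAM receptors, was at 93.3 to 158 FPKM in ApoE-/- and at 78.8 to 104 FPKM in NPRC-/-ApoE-/-. Its log2 fold change was −0.51 (SE 0.22, unadjusted p = 0.0486 in the edgeR fit), which stayed under 0.05 in 2 of the 8 fits that left out 1 library, and by genotype entry it was −0.05.

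The fitted difference by title was larger for Bmp2 than for Bmp4. Their direct comparison, the Bmp2 to Bmp4 ratio given below, did not pass 0.05 with all 8 libraries. Bmp2 (ENSMUSG00000027358, chr2:133552159-133562885, plus strand) was at 1.69, 2.84, 2.22, 1.85 and 1.35 FPKM in ApoE-/- and at 1.45, 1.07 and 1.19 FPKM in NPRC-/-ApoE-/-. ApoE-/- 5 lay inside the range of the NPRC-/-ApoE-/- libraries, which were below the other 4. Bmp2 had a log2 fold change of −0.67 (SE 0.26, 95% interval −1.26 to −0.07, unadjusted p = 0.0314, adjusted p = 0.328, edgeR quasi-likelihood test, Benjamini-Hochberg adjusted). Its unadjusted p-value was above 0.05 in 5 of the 8 edgeR fits that left out 1 library (0.0652, 0.0685 and 0.0505 without ApoE-/- 2, 3 and 4, and 0.115 and 0.0720 without NPRC-/-ApoE-/- 2 and 3). It was smaller than 2-fold, a two-sided exact permutation test gave p = 0.0714, and by genotype entry it was −0.30 (95% interval −1.05 to 0.44).

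Bmp4 (ENSMUSG00000021835, chr14:46383520-46390669, minus strand) was at 6.53, 8.76, 6.72, 6.22 and 7.46 FPKM in ApoE-/- and at 6.65, 6.04 and 5.88 FPKM in NPRC-/-ApoE-/-. Apart from ApoE-/- 2, which was the highest, the libraries were close together and the groups overlapped. The log2 fold change of −0.18 (SE 0.14, 95% interval −0.49 to 0.13, adjusted p = 0.574, edgeR quasi-likelihood test, Benjamini-Hochberg adjusted) was −0.06 by genotype entry. The genes Gm15217 and Gm15222 overlap Bmp4 on the plus strand, and whether the counting used strand is not stated in the sources used here. The ratio of Bmp2 to Bmp4 FPKM was 0.260, 0.325, 0.331, 0.299 and 0.182 in ApoE-/- and 0.219, 0.179 and 0.204 in NPRC-/-ApoE-/-. The mean log2 ratio was −1.87 ± 0.36 (SD, n = 5) and −2.32 ± 0.15 (SD, n = 3), a difference of −0.45 that did not pass 0.05 (two-sided exact permutation test, p = 0.0893). Without ApoE-/- 5, the difference was −0.60 (two-sided exact permutation test, p = 0.0286, the smallest that the remaining libraries allow). With any other library left out, p was 0.114 to 0.286 in the same test. By genotype entry, the difference was −0.20 (p = 0.482 in the exact permutation test).

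Of 13 other BMP ligands, receptors and SMADs, 11 were tested, with 7 lower and 4 higher (the locus used for Bmpr1b lies on the strand opposite to that gene). Acvrl1 (ALK1), a receptor of endothelial cells for BMP9 and BMP10, was lower by title (log2 fold change −0.40, SE 0.15), Bmp3, a ligand that opposes BMP2, was higher (0.86, SE 0.33), and Smad9, which carries BMP signals to the nucleus, was higher (0.61, SE 0.24). Their unadjusted p-values were 0.0253, 0.0279 and 0.0332 in the edgeR fit, and by genotype entry their log2 fold changes were 0.10, 0.22 and 0.14. The type II receptor Bmpr2, with the highest level in the list, differed by −0.01 (SE 0.12).

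Of 12 BMP antagonists and early targets, 11 were tested, with 7 lower and 4 higher. Bmper, a secreted BMP-binding protein of endothelium and smooth muscle, was at 1.29, 1.06, 1.92, 1.27 and 0.87 FPKM in ApoE-/- and at 0.74, 0.39 and 0.43 FPKM in NPRC-/-ApoE-/-. All 3 NPRC-/-ApoE-/- libraries were below all 5 ApoE-/- libraries. Its log2 fold change was −1.30 (SE 0.33), with an unadjusted p-value of 0.00318 and an adjusted p-value of 0.255 in edgeR's quasi-likelihood test. DESeq2 gave an adjusted p-value of 0.00755, and by genotype entry the log2 fold change was −0.32. Smad6, an inhibitory SMAD, was higher by 0.49 (SE 0.21, unadjusted p = 0.0437 in the edgeR fit) and by 0.14 with the genotype entry. Fstl1, a secreted follistatin-like protein, differed by −0.21 (SE 0.23).

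Runx2 (ENSMUSG00000039153, chr17:44495987-44814797, minus strand) was at 1.08, 1.00, 1.32, 1.44 and 0.69 FPKM in ApoE-/- and at 1.03, 0.44 and 0.45 FPKM in NPRC-/-ApoE-/-. NPRC-/-ApoE-/- 2 and 3 had the lowest values, ApoE-/- 5 was next, and NPRC-/-ApoE-/- 1 was level with ApoE-/- 1 and 2. Runx2 had a log2 fold change of −0.80 (SE 0.36, 95% interval −1.62 to 0.01), with an unadjusted p-value of 0.0534 and an adjusted p-value of 0.372 in edgeR's quasi-likelihood test. It depended on which NPRC-/-ApoE-/- library was left out, at −1.29 without the first, which met the criterion of the study, and at −0.57 and −0.61 without the second and the third (unadjusted p = 0.182 and 0.174 in the edgeR fits). By genotype entry it was −0.15 (95% interval −1.15 to 0.85). Supt3 and 3 antisense RNAs overlap Runx2 on the plus strand, and reads of these genes cannot be told apart if the counting did not use strand.

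Of 10 other osteochondrogenic transcription factors, 5 were tested, with 4 lower and 1 higher. Cbfb, the partner that stabilizes RUNX proteins on DNA, was at 5.15, 5.16, 4.50, 5.23 and 4.49 FPKM in ApoE-/- and at 2.85, 3.26 and 2.49 FPKM in NPRC-/-ApoE-/-. The groups stood apart, with a log2 fold change of −0.76 (SE 0.13, unadjusted p = 0.000249, adjusted p = 0.177 in edgeR's quasi-likelihood test, 2.94e-05 in DESeq2), which was −0.01 by genotype entry. Sox9, the chondrogenic transcription factor, was at 1.84, 2.71, 1.60, 2.03 and 1.47 FPKM in ApoE-/- and at 1.27, 1.22 and 1.15 FPKM in NPRC-/-ApoE-/-. These values did not overlap, the log2 fold change was −0.65 (SE 0.21, unadjusted p = 0.0142, adjusted p = 0.290 in edgeR's quasi-likelihood test), and by genotype entry it was −0.12. Atf4, a stress-induced factor that osteoblasts use, differed by −0.29 (SE 0.24).

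Sost (ENSMUSG00000001494, chr11:101962458-101967015, minus strand) had the largest difference among the 9 tested regulators and was 1 of 2 with a higher fitted level in NPRC-/-ApoE-/-, beside Ank. It was at 30.0, 35.8, 33.9, 16.8 and 66.0 FPKM in ApoE-/- and at 39.7, 61.1 and 117 FPKM in NPRC-/-ApoE-/-. NPRC-/-ApoE-/- 3 stood above all others, ApoE-/- 4 stood below all others, and ApoE-/- 5 was above 2 of the 3 NPRC-/-ApoE-/- libraries, so the groups overlapped. The mean was 36.5 ± 18.1 FPKM (SD, n = 5) and 72.5 ± 39.8 FPKM (SD, n = 3). The log2 fold change was 1.05 (SE 0.43, 95% interval 0.08 to 2.03), or 2.07-fold, with an unadjusted p-value of 0.0374 and an adjusted p-value of 0.339 in edgeR's quasi-likelihood test. A two-sided exact permutation test on log2 CPM gave p = 0.107. Without NPRC-/-ApoE-/- 3 the log2 fold change was 0.48, and by genotype entry it was 0.77 (95% interval −0.37 to 1.9). In the fits that left out ApoE-/- 1, 2, 3 or 4, the p-value was also above 0.05, with log2 fold changes of 0.98, 1.04, 1.07 and 0.90.

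Sclerostin binds the WNT co-receptors LRP5 and LRP6, and LRP4 anchors it. Of the 7 other genes listed for this arm, 5 were tested, with 3 lower and 2 higher. Lrp4 was at 1.43 to 2.11 FPKM in ApoE-/- and at 1.08 to 1.41 FPKM in NPRC-/-ApoE-/-, without overlap. Its log2 fold change was −0.46 (SE 0.18, unadjusted p = 0.0334 in the edgeR fit), and −0.20 by genotype entry. Ctnnb1 (β-catenin, in a locus with Mir7090) differed by −0.25 (SE 0.21). Sostdc1, a paralog of sclerostin that binds BMPs, did not pass the filter. It was at 0.51, 1.33, 0.42, 0.53 and 0.43 FPKM in ApoE-/- and at 0.21, 0.18 and 0.10 FPKM in NPRC-/-ApoE-/-, and was singled out after its values were seen.

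Tnfrsf11b (ENSMUSG00000063727, chr15:54250619-54278484, minus strand) was at 4.16, 5.39, 4.43, 5.56 and 2.35 FPKM in ApoE-/- and at 4.49, 1.70 and 2.23 FPKM in NPRC-/-ApoE-/-. ApoE-/- 5 and NPRC-/-ApoE-/- 2 and 3 were low, and NPRC-/-ApoE-/- 1 was as high as most ApoE-/- libraries. Tnfrsf11b had a log2 fold change of −0.64 (SE 0.37, 95% interval −1.49 to 0.20, adjusted p = 0.467, edgeR quasi-likelihood test, Benjamini-Hochberg adjusted). Left-out libraries moved it both ways, to −1.12 without NPRC-/-ApoE-/- 1, which met the criterion of the study, and to −0.36 and −0.51 without NPRC-/-ApoE-/- 2 and 3 (unadjusted p = 0.376 and 0.280 in the edgeR fits). By genotype entry it was −0.21 (95% interval −1.17 to 0.75).

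In the RANK pathway, for which osteoprotegerin is the decoy, 6 of 9 listed genes were tested, and all 6 had lower fitted levels, none with an unadjusted p-value under 0.05. Acp5, the acid phosphatase of osteoclasts and some macrophages, was the most abundant and differed by −0.72 (SE 0.37, unadjusted p = 0.0831 in the edgeR fit), and by −1.20 without NPRC-/-ApoE-/- 1 and −0.44 without NPRC-/-ApoE-/- 3. Tnfsf11 (RANKL), the ligand that osteoprotegerin binds, did not pass the filter and was singled out after its values were seen. Its counts were 60, 226, 306, 222 and 39 in ApoE-/- and 27, 0 and 0 in NPRC-/-ApoE-/-. Its 2 libraries at 0 are the ones with the lowest Tnfrsf11b FPKM. ApoE-/- 5 was next for Tnfrsf11b FPKM and had the lowest Tnfsf11 count among the ApoE-/- libraries. On log2 CPM, Tnfrsf11b was lower in ApoE-/- 5 (5.16) than in NPRC-/-ApoE-/- 3 (5.25). A fold change of Tnfsf11 is not given because it depends on how the zeros are treated.

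Over the 7 lists, 51 of 70 genes were tested, with 34 lower and 17 higher and a median log2 fold change of −0.10. An unadjusted p-value under 0.05 was found for 12 of the 51 (8 lower and 4 higher), which is 23.5%, against 13.6% of all loci (7.13% lower and 6.51% higher). The criterion of the study was met by 3, with Nt5e and Bmper among them, which is 5.88%, against 3.47% of all loci. After adjustment, 0 passed in edgeR's quasi-likelihood test and 4 in DESeq2, with Nt5e, Bmper and Cbfb among them, against 3.17% of all loci. The lists, like the regulators, were chosen with earlier results of these data known. Neither set of shares therefore tests whether such genes change more often than other loci. With each library left out in turn, Nt5e, Bmper, Sox9 and Cbfb kept an unadjusted p-value under 0.05 in 8 of 8 edgeR fits. Phospho1, Bmp3, Acvrl1 and Lrp4 did so in 4 of 8, Smad9 and Smad6 in 3 of 8, and Gas6 in 2 of 8. By genotype entry 0 of the 51 had an unadjusted p-value under 0.05, against 1.31% of all loci.

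**Figure D3:**
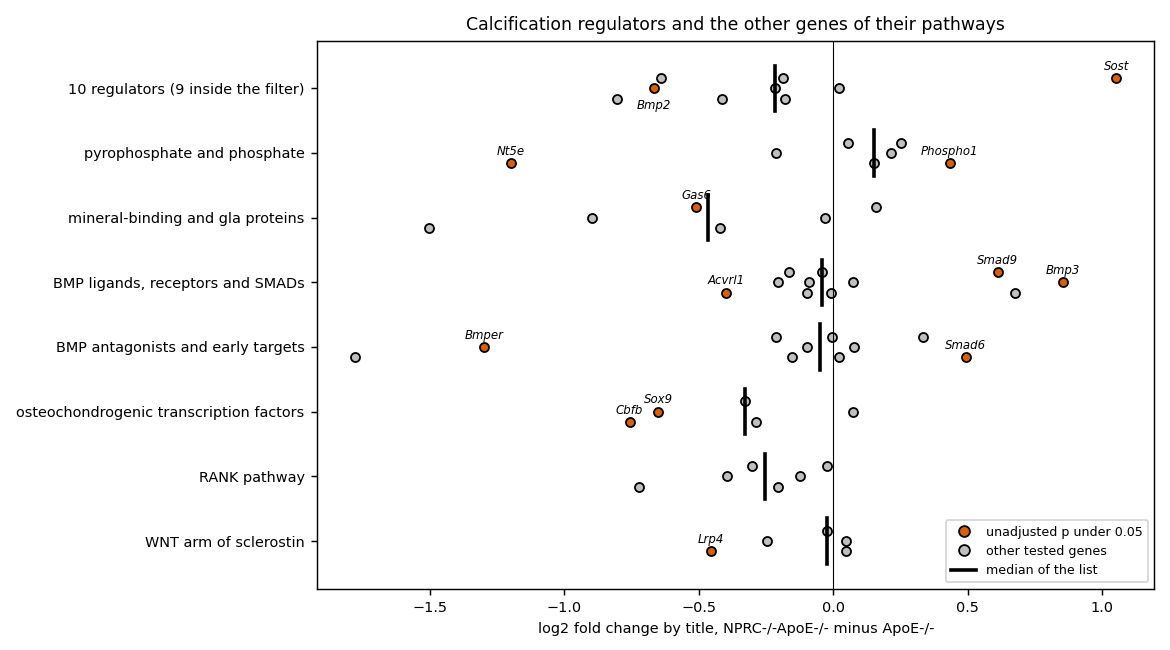
Log2 fold change by title (horizontal axis, NPRC-/-ApoE-/- minus ApoE-/-) of the tested regulators (top row) and of the tested genes of 7 pathway lists (less 1 gene not reported here), with orange points and names for unadjusted p-values under 0.05 and a black bar at each median. Sost (1.05) lies farthest to the right, and Nt5e (−1.20) and Bmper (−1.30) are the named genes farthest to the left.

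The regulators did not order the libraries by title alone. For 6 of the 10 genes (Runx2, Alpl, Enpp1, Ibsp, Bmp2 and Tnfrsf11b), the 3 lowest libraries by FPKM were the same, ApoE-/- 5 and NPRC-/-ApoE-/- 2 and 3. On log2 CPM, Enpp1 departed from this, being lower in ApoE-/- 2 (6.10) than in NPRC-/-ApoE-/- 3 (6.20). The 3 highest libraries of Sost by FPKM were ApoE-/- 5 and NPRC-/-ApoE-/- 2 and 3. The lowest value was in a library titled NPRC-/-ApoE-/- for 6 of the 10 genes, and the highest was in a library titled ApoE-/- for 9 of the 10, Sost being the exception. Such orders were not counted over all loci, and 5 of the 8 libraries are titled ApoE-/-, so these counts do not set the regulators apart from other loci. The genotype entry names ApoE-/- 5 and NPRC-/-ApoE-/- 2 and 3 as Nprc-/-Apoe-/-, Apoe-/- and Nprc-/-Apoe-/-, so that they belong together under neither label.

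The summed levels of macrophage, fibroblast and smooth muscle markers moved with the same libraries. Summed FPKM of 8 macrophage markers was 850.8, 1202, 1709, 1839 and 619 in ApoE-/- and 1011, 376 and 301 in NPRC-/-ApoE-/-, with 8 of 8 genes lower by title and 2 with an unadjusted p-value under 0.05. That of 6 fibroblast markers was 695, 873.5, 1332, 1290 and 506 in ApoE-/- and 701, 282 and 424 in NPRC-/-ApoE-/-, with 6 of 6 lower and 2 under 0.05. The 3 lowest libraries were again ApoE-/- 5 and NPRC-/-ApoE-/- 2 and 3 for both lists. Summed FPKM of 8 smooth muscle markers was 1317, 1603, 1681, 1376 and 1760 in ApoE-/- and 1706, 2429 and 2918 in NPRC-/-ApoE-/-, with 8 of 8 higher and 7 under 0.05, and the same 3 libraries were the highest. Of all loci tested by title, 13.6% had an unadjusted p-value under 0.05 and 50.9% were lower. Single marker genes did not all share the order of the summed levels. By FPKM the titled groups stood apart for Mrc1 (9.37 to 11.98 in ApoE-/-, 5.71 to 7.48 in NPRC-/-ApoE-/-) and Dpt (39.25 to 67.38, 22.71 to 31.84). They also did for Cnn1 (43.37 to 65.41, 74.94 to 92.28) and Smtn (21.51 to 39.31, 42.57 to 68.57). For the other genes of these lists the titled groups overlapped. Of 8 cartilage markers, which are of interest beside Runx2 and Sox9, 4 were tested, with 0 under 0.05, and their summed FPKM was 14.5 to 37.0 in ApoE-/- and 16.1 to 22.3 in NPRC-/-ApoE-/-. The summed level of endothelial markers was even (82.2 to 92.7 and 79.8 to 85.4 FPKM). Among them the titled groups stood apart for Cdh5 (13.38 to 18.3 in ApoE-/-, 12.11 to 12.98 in NPRC-/-ApoE-/-) and overlapped for the others. Summed FPKM of 7 lymphocyte markers was 1.63 to 12.4. Schwann cell markers followed the title instead, at 12.8, 12.9, 10.9, 11.3 and 14.5 FPKM summed in ApoE-/- and 8.78, 7.96 and 7.09 in NPRC-/-ApoE-/-, with 5 of 5 tested genes lower and 3 with an unadjusted p-value under 0.05. Summed levels of white adipocyte markers (69.9 to 325.5 and 89.4 to 221.9 FPKM) and cardiomyocyte markers (1.42 to 14.2 and 1.20 to 5.22 FPKM) overlapped between the titled groups. The part of these cells in the values of the 10 genes was not tested, and in a bulk sample fewer cells of a type and less RNA per cell cannot be told apart. By genotype entry, 0 genes of these lists had an unadjusted p-value under 0.05, against 1.31% of all loci.

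**Figure D4:**
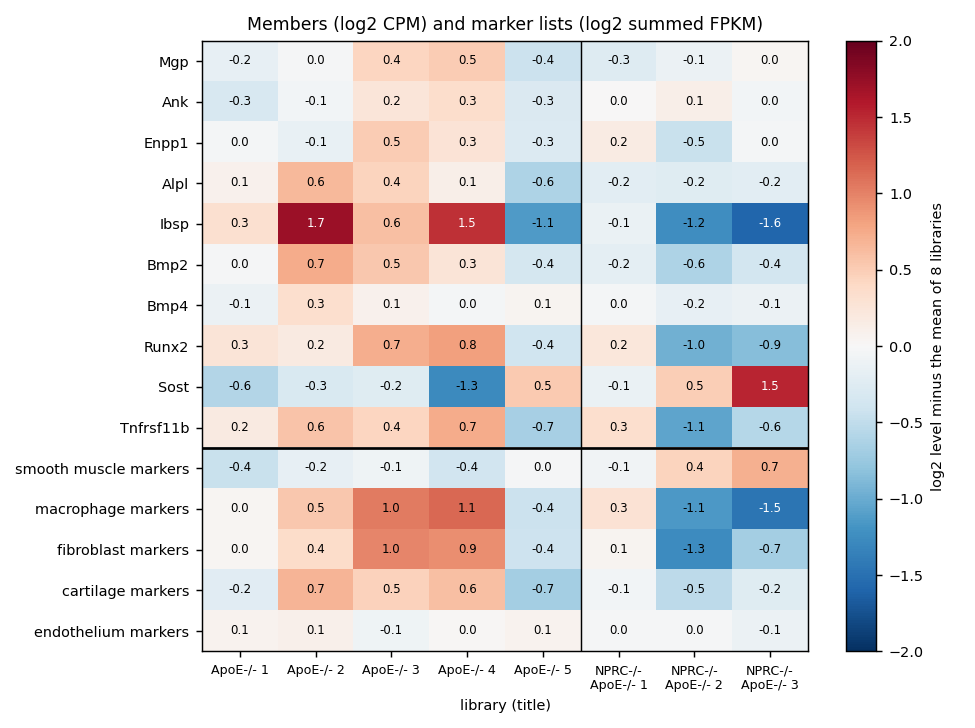
Log2 level of each regulator (log2 CPM) and of 5 marker lists (log2 of summed FPKM) in each library, less the mean of the 8 libraries, with red above and blue below it. ApoE-/- 5 and NPRC-/-ApoE-/- 2 and 3 are at or below the mean for 6 regulators and below it for the macrophage, fibroblast and cartilage lists, and above it for Sost.

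The named genes whose log2 CPM was most like that of a regulator over the 8 libraries were found by Pearson's r, as a description. For Runx2 they were Myo1f (0.998), an unconventional myosin of leukocytes, Lhfpl2 (0.995) and Slc31a1 (0.994), a copper transporter. For Sost they were Lancl3 (0.990), Gm10687 (0.988) and Itga9 (0.982), an integrin subunit. For Bmp2 they were Gimap3 (0.983), a GTPase of lymphocytes, Hist1h3i (0.981) and Tap2 (0.975), a peptide transporter of antigen presentation. For Tnfrsf11b they were Tnfsf8 (0.986), the ligand of CD30, Cdca4 (0.984) and 1810014B01Rik (0.983). For Mgp they were Neurl2 (0.983), Tnfrsf11a (0.978), which encodes RANK, and Gm6169 (0.975). For Ank they were Vim (0.985), which encodes the intermediate filament vimentin, Babam1 (0.973) and Cyb5r3 (0.970). For Alpl they were Fam107b (0.980), Cpsf1 (0.969) and Chpf (0.963), for Enpp1 they were Cic (0.978), C1qtnf6 (0.967) and Gsr (0.966), and for Bmp4 they were Gprc5b (0.944), Ing5 (0.939) and Gm23184 (0.938). The values share the depth and cell content of 8 libraries, and the best of 20506 loci over 8 points is high by construction.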

How the data were processed

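The authors trimmed the reads (cutadapt 1.9 and FastQC stand in the processing notes of the submitters), mapped them with HISAT2 and assembled loci with StringTie, and the notes name the build GRCm38. The libraries were made with dUTP, which marks strand, but whether the counting used strand is not given in the sources used here. The authors deposited whole-number counts per locus without normalization and FPKM values scaled to transcript length and library size. There were 5 libraries titled ApoE-/- and 3 titled NPRC-/-ApoE-/-, and 1710 loci carried several gene names.

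The filter kept loci reaching 1 FPKM in 3 or more libraries, whose counts were tested with edgeR 4.0.16 in R 4.3.3 (TMM, trended dispersion, quasi-likelihood test, Benjamini-Hochberg adjustment over all 20506 loci). Standard errors are the log2 fold change over the square root of F, and log2 CPM used a prior count of 2. DESeq2 1.42.0 and limma 3.58.1 on log2(FPKM + 1) and log2(FPKM + 0.1) were alternatives, beside other filters and scaling, the genotype entry, the replicate block and each library left out. Exact permutation tests were two-sided. On simulated counts of 20506 loci with 200 changed, edgeR recovered 28.7% of 2-fold and 94.3% of 4-fold changes at an adjusted p under 0.05. The simulated counts followed the dispersion trend alone, and only loci above a floor of counts were changed. They held neither the spread of single loci nor the differences in cell content between these libraries, so these shares need not hold for the data. With 8 libraries and a biological coefficient of variation of 0.327, precision is limited by their number. Members and lists were chosen with earlier results of these data known. All regulators were named, and from the pathway lists the genes with an unadjusted p-value under 0.05 and the most abundant gene of each list. The result of 1 gene of the pathway lists is not reported here, though counts over the lists include it.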

Additional observations from a re-analysis of the deposited data

Results flagged for a closer look

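The log2 CPM of Tnfrsf11b in NPRC-/-ApoE-/- 2 was 4.77, far below the other 4 libraries entered as Apoe-/-. The gap to the nearest library was 0.761 of the range of the group, above the 95% critical value of Dixon's test for 5 libraries (0.71). In all, 24 groups of values were examined in this way, of which chance alone would mark about 1.2. The library is titled NPRC-/-ApoE-/- but entered as Apoe-/-, and no explanation was tested.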

How the results depend on the processing

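The count of regulators called by title (1 of 9) was 2 with the filterByExpr filter and 2 without a filter, 0 by genotype entry, 0 with limma on either pseudocount, and between 0 and 3 with each library left out (3 without NPRC-/-ApoE-/- 1, namely Sost, Runx2 and Tnfrsf11b). The count of all loci called (712) was 1738 with filterByExpr, 2287 without a filter, 95 by genotype entry, 175 with limma on log2(FPKM + 1) and 403 to 1635 with a library left out. Loci with an adjusted p-value under 0.05 (0 in edgeR's quasi-likelihood test, 2797 at an unadjusted p under 0.05) numbered 650 in DESeq2, 2 with limma on log2(FPKM + 1), 1 in the 6 libraries numbered 1 to 3 without a block, and 0 to 45 with a library left out. The smallest adjusted p-value of a regulator over the alternatives was 0.0749 (Ibsp, DESeq2) and the largest was 1, by genotype entry. The log2 ratio difference of Alpl to Enpp1 ranged from −0.34 to 0.00319 with a library left out, and that of Bmp2 to Bmp4 from −0.60 to −0.37. Sost ranged from 0.48 to 1.36 with a library left out. It was 0.96 and 0.98 with limma (pseudocounts 1 and 0.1), 0.77 by genotype entry and 1.9, without a test, in the 4 libraries with agreeing labels. The only NPRC-/-ApoE-/- library among those 4 is NPRC-/-ApoE-/- 3, which had the highest Sost value (117 FPKM).

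The sign of a log2 fold change turned by genotype entry for Mgp (0.10), Nt5e (0.0107), Spp1 (0.13), Acvrl1 (0.10), Fstl1 (0.15), Ctnnb1 (0.0453) and Bmpr2 (0.082). Ank turned without ApoE-/- 1 (−0.0496), ApoE-/- 5 (−0.04) or NPRC-/-ApoE-/- 2 (−0.0032) and reached 0.138 without ApoE-/- 4, and Slc29a1 turned without ApoE-/- 5 (−0.0202) and reached 0.145 without ApoE-/- 4. Bmpr2 turned in the 4 libraries with agreeing labels (0.0748), in the 6 numbered libraries with or without the block (0.0286 and 0.0269), and without ApoE-/- 1 (0.0017), 3 (0.0028), 4 (0.02), 5 (0.0065) or NPRC-/-ApoE-/- 2 (0.0449), and its lowest value was −0.0457 without ApoE-/- 2. The cause was not tested.

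Pairing by replicate number was not seen, with deviations from the group means correlated at −0.31, −0.11 and 0.01 for numbers 1 to 3. The mean of the other pairs was 0.07, and 3 pairs are too few to settle it. With the replicate block, 800 loci were called, against 917 in the same 6 libraries without it, and Sost was 1.00 with the block and 1.16 without it.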
